A study of Arabidopsis thaliana with 12 samples.

Results

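Transcripts of 10 Arabidopsis heat shock genes were followed in seedlings with and without salt. They were the seed heat shock factor HSFA9 (AT5G54070), the disaggregase HSP101 (AT1G74310) and 8 small heat shock protein genes. The 8 were HSP17.6II (AT5G12020) and HSP17.6A (AT5G12030), HSP17.4 (AT3G46230), HSP17.6C (AT1G53540) and HSP18.2 (AT5G59720), HSP21 (AT4G27670), HSP22.0 (AT4G10250) and HSP23.6-MITO (AT4G25200). The 10 genes were taken by identifier from a count table of 33602 genes, and all of them were found there. RNA came from pre-germinated seedlings of Col-0, the wild type, and of camta6-5, the 1 mutant allele of camta6 studied, both sown after cold stratification on agar medium. Each genotype was given 0 mM NaCl (control) or 200 mM NaCl for 16 h. The 4 groups held 3 libraries each, 12 in all.

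HSFA9 is a heat shock transcription factor of seeds. In Arabidopsis it is known to be switched on by ABI3 during seed maturation, without any heat. HSP101 is the cytosolic ClpB-type chaperone that pulls proteins out of aggregates and is needed for acquired thermotolerance. Small heat shock proteins hold unfolding proteins without using ATP, and they hand them on to such disaggregases. HSP17.6II and HSP17.6A are class II and HSP17.4, HSP17.6C and HSP18.2 are class I proteins of the cytosol, while HSP21 acts in the chloroplast, HSP22.0 in the endoplasmic reticulum and HSP23.6-MITO in the mitochondrion. Their genes are known to be induced by heat, and several of them also during seed maturation. Heat shock factors bind heat shock elements, which are inverted repeats of GAA and TTC units in the promoter.

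The 250 bases upstream of each gene were searched for these and for seed promoter motifs. Positions are on TAIR10, the starts are those of the deposited table and the sequence is that of RefSeq for TAIR10.1. The windows of HSFA9, HSP17.4 and HSP21 are shown because these 3 genes had the largest rises and the largest fall with salt in the wild type. Capitals mark 2-unit heat shock elements (GAANNTTC or TTCNNGAA) and the RY element of seed promoters (CATGCA), each searched on both strands.
HSFA9 (chr5:21943733-21943982, plus strand): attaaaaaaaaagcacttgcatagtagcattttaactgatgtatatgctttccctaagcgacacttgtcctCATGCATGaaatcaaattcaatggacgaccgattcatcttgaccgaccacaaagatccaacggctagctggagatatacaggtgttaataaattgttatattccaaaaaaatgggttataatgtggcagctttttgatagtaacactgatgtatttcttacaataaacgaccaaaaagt
HSP17.4 (chr3:16984842-16985091, minus strand): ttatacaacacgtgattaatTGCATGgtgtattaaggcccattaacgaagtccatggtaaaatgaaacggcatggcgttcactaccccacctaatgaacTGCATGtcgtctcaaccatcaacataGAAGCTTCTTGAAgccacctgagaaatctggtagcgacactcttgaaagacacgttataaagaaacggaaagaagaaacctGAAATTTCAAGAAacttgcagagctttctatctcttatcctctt
HSP21 (chr4:13819972-13820221, minus strand): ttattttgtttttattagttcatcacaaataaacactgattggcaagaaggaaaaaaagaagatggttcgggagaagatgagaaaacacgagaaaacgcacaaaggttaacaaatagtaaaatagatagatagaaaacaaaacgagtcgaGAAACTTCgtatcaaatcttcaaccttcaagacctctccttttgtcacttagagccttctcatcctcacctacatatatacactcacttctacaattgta

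The HSFA9 window held 2 overlapping RY elements and no heat shock element of these letters. The HSP17.4 window held 2 heat shock elements of 3 units (GAANNTTC extended by NNGAA, or TTCNNGAA extended by NNTTC) together with 2 RY elements and 3 matches to ACGTG, the core of the abscisic acid response element (ABRE), of which 2 overlap on opposite strands. The HSP21 window held a single 2-unit element and neither of the other motifs. The windows of 6 further genes are given only around an element, again with its letters in capitals. For HSP17.6C and HSP18.2 the stretch shown is the 3-unit element. RefSeq starts the transcripts of HSFA9, HSP17.4 and HSP21 where the deposited table does and those of the other genes further upstream, by 5 bases for HSP22.0 and by 91 to 254 bases for the rest. The elements shown for HSP101, HSP17.6II, HSP18.2 and HSP23.6-MITO therefore lie inside the RefSeq transcript, while those shown for HSP17.6A and HSP17.6C lie upstream of it.
HSP101 (chr1:27940322-27940351, minus strand): ataaaataagcGAAAATTCcacgtgacatc
HSP17.6II (chr5:3883035-3883064, minus strand): gaccaagacgtTTCTCGAAcaatacggaag
HSP17.6A (chr5:3884842-3884871, minus strand): gatcaagacgtTTCTCGAAcgttagagaag
HSP17.6C (chr1:19980238-19980266, plus strand): caacaccaGAAACTTCTTGAAagcacctg
HSP18.2 (chr5:24062388-24062416, plus strand): caacaaacGAAACTTCCTGAAatgccaag
HSP23.6-MITO (chr4:12916928-12916957, plus strand): ccacttctccaGAACATTCactcactgaca

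A 3-unit element, which contains 2 overlapping 2-unit elements, was found in the windows of 3 of the 10 genes and in 0.417% of 32834 gene windows of the same length. A 2-unit element was found in the windows of 8 of the 10 genes, all but HSFA9 and HSP22.0, and in 16.4% of all windows. With windows of the same length taken from the RefSeq transcript starts, a choice made after seeing the data, the 3-unit element was found for HSP17.4 and HSP17.6C, 2 of the 10, and in 0.378% of all windows. The 2-unit element was then found for HSP17.6A, HSP17.4, HSP17.6C and HSP21, 4 of the 10, and in 16% of all windows. In the windows from the table's starts, the ABRE core stood in those of HSP101, HSP17.4, HSP17.6C, HSP18.2 and HSP22.0, 5 of the 10, and in 23.1% of all windows. The RY element stood in those of HSFA9, HSP17.4 and HSP22.0, 3 of the 10, and in 8.22% of all windows. From the RefSeq starts, the ABRE core was found for 4 genes (21.6% of all windows) and the RY element for 4 (8.84%). HSP17.6II and HSP17.6A, neighbours on the same strand of chromosome 5, carried the same element letters in similar surroundings, and of the pair HSP17.6II passed the test for salt in the wild type.

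The libraries held 29473212 to 35450685 counts each. Transcripts of CAMTA6 (AT3G16940), the gene named by the mutant, were present in all 12 libraries, at 17.8 ± 2.79 CPM (read counts divided by the TMM-scaled library size; mean ± SD, n = 3) in wild type controls and 34.8 ± 1.34 CPM in camta6-5 controls. They were thus higher in the mutant (log2 0.96 ± 0.13, SE; adjusted p = 0.00661, edgeR quasi-likelihood test), and the labels do not say how the allele alters the gene, so a library's genotype is that of its label. With NaCl, CAMTA6 stood at 30.9 ± 2.84 CPM in the wild type, against 43.9 ± 7.43 CPM in the mutant. Summed transcripts of 5 seed storage proteins ran from 485 to 729 CPM in wild type controls and from 8380 to 9864 CPM in wild type with NaCl, and from 571 to 1109 CPM and from 8749 to 14826 CPM in camta6-5. CRA1 was the largest part of this sum, and the 5 genes differed in direction between the genotypes. With NaCl, CRA1 had a higher mean in camta6-5 than in wild type (9090.5 against 4639 CPM). The others had lower means there, namely CRU3 (2242 against 2650), AT2S3 (444 against 1612), SESA1 (60.1 against 214) and CRU2 (93.7 against 127 CPM). Summed transcripts of 4 photosynthesis genes of green seedlings ran from 778 to 1034 CPM and from 270 to 359 CPM in wild type, and from 852 to 996 CPM and from 546 to 666 CPM in camta6-5. RBCS1A made up most of this sum, with means of 808.5 and 308 CPM without and with NaCl in wild type. The others there were RBCS-2B (69.1 and 2.95), LHCB3 (11.8 and 0.564) and CAB3 (1.36 and 0.618 CPM). In camta6-5 the means were 873 and 583 CPM for RBCS1A, 43.2 and 4.14 for RBCS-2B, 11.9 and 5.30 for LHCB3 and 1.74 and 1.32 for CAB3. Summed transcripts of 3 endosperm genes ran from 40.1 to 119 CPM and from 41.9 to 59.6 CPM in wild type, and from 42.4 to 56.5 CPM and from 59.6 to 87.6 CPM in camta6-5. In wild type, ATEXPA2 went from 30.8 ± 21.3 to 6.02 ± 2.48 CPM with NaCl (SD, n = 3). ATEPR1 went from 26.3 ± 17.8 to 32.7 ± 10.9 CPM and MAN7 from 15.3 ± 2.58 to 13.8 ± 1.46 CPM. Of the defining seed coat pigment genes, TT10 had 0, BAN 1 and TT12 16 counts over the 12 libraries. In bulk seedlings, fewer cells of a type and less RNA per cell cannot be told apart, and the part of these marker levels in the results on the heat shock genes was not tested.

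Libraries of the control groups stood apart from each other in nearly all of these genes, and every comparison with a control rests on them. In the wild type controls, library 3 was the highest and library 1 the lowest in 10 of 10 genes, an order held by 17.4% of all 18515 genes tested. For HSFA9, libraries 1 and 2 held the same count, so their order follows from library size alone. In the camta6-5 controls, library 3 was the lowest in 9 of 10 genes, against 31.9% of all genes. Both held for 9 of 10 genes and for 3.94% of all genes. HSP101 had 4025, 5758 and 12985 counts in wild type control libraries 1, 2 and 3, and 7497, 7266 and 1798 counts in those of camta6-5. The highest over the lowest CPM of a gene within a group had a median of 1.19 over all genes in wild type controls and 4.33 over the 10 genes. In camta6-5 controls the medians were 1.22 and 4.48. In each control group, 9 of the 10 genes, all but HSFA9, exceeded the 95th percentile of all genes, which was 2.32 in wild type and 2.40 in camta6-5. With NaCl, only 2 of the 10 exceeded it in wild type (2.52) and 3 in camta6-5 (2.33). Among 11 other small heat shock protein genes, 8 shared the order of both control groups, as did 6 of 8 other heat response genes, 2 of 17 other heat shock factors and 0 of 5 seed regulators. The share of counts on 18S rRNA was 0.508, 0.0717 and 0.0343% in wild type control libraries 1 to 3, the reverse of the order of the 10 genes there. In camta6-5 control libraries 1 to 3 it was 1.03, 0.108 and 0.536%, and library 3, the lowest in 9 of the genes, lay between the others. The part of 18S rRNA in these differences was not tested.

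**Figure D1:**
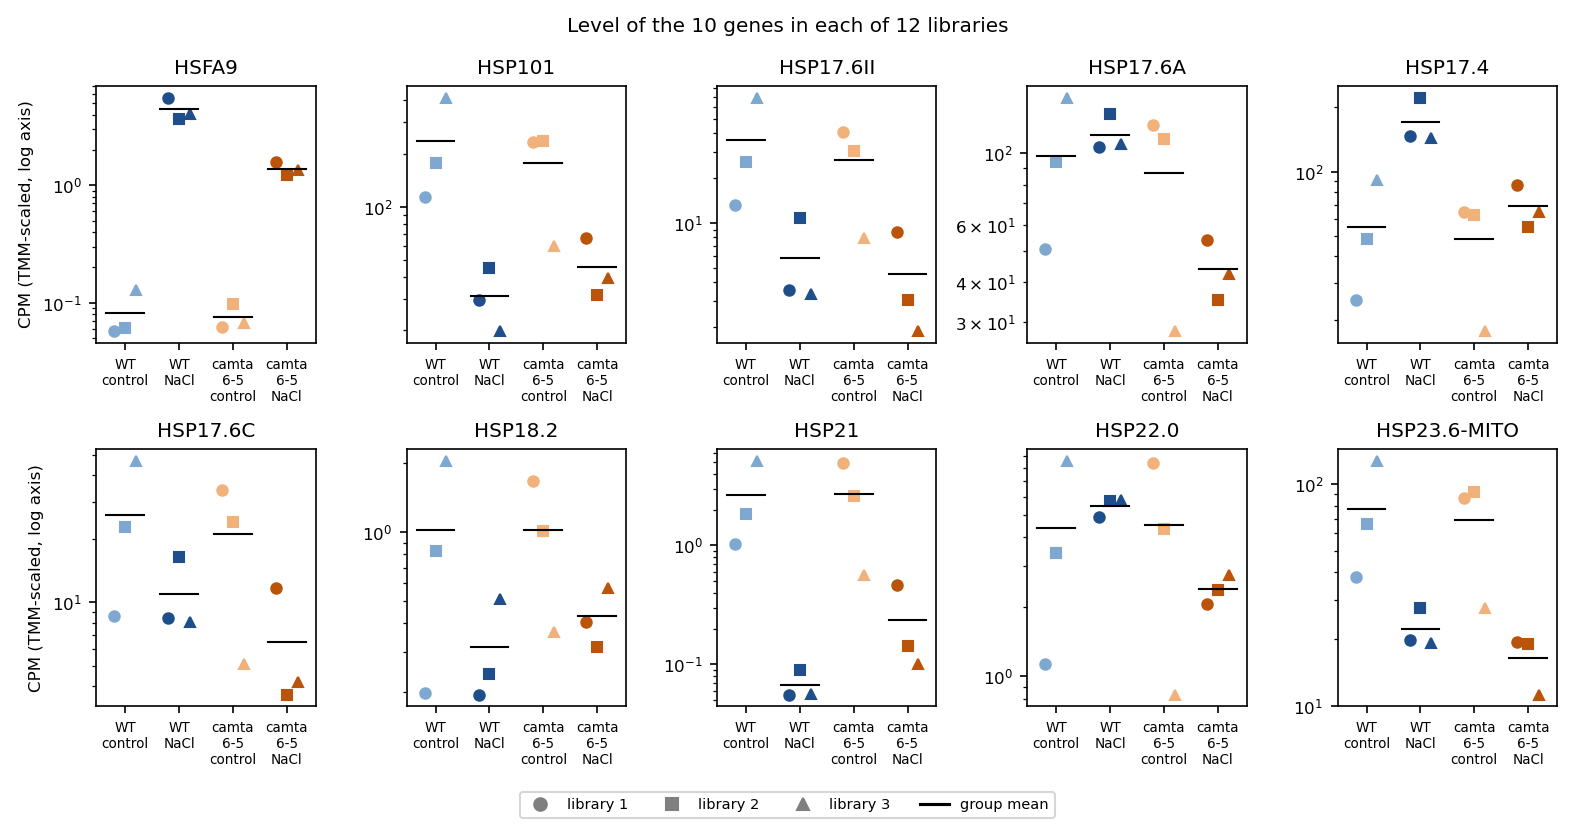
Level of each of the 10 genes in the 12 libraries, as CPM scaled by TMM factors on a log axis with its own range per panel; symbols are libraries 1 to 3 of a group and bars are group means. HSFA9 stands between 3.67 and 5.59 CPM in wild type with NaCl and at or under 0.128 CPM in all 6 controls, and library 3 is the top of the wild type controls in all 10 panels.

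Salt in the wild type raised HSFA9 and HSP17.4 and lowered HSP101, HSP17.6II, HSP18.2, HSP21 and HSP23.6-MITO, so the seed factor and 1 small heat shock protein moved against 5 of the other chaperone genes. In all, 7 of 10 genes passed an adjusted p of 0.05, 2 higher and 5 lower. NaCl changed 77.5% of all genes tested in the wild type, 37.9% higher and 39.6% lower, so that the number called is near the background. The libraries with and without NaCl did not overlap for 6 of the 10 genes, against 80.7% of all genes. The median log2 change was -1.45 over the 10 genes and -0.01 over all genes.

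HSFA9 had 2, 2 and 4 counts in the wild type control libraries 1 to 3 and 201, 122 and 144 counts in those with NaCl. On the CPM scale its level was 0.0818 ± 0.0398 (SD, n = 3) without and 4.45 ± 1.01 with NaCl, and the libraries did not overlap. The difference was 5.72 ± 0.31 (SE) on the log2 scale (52.8-fold; edgeR quasi-likelihood test, adjusted p = 3.72e-09). The ratio of the summed counts was 55.5, with a 95% exact interval from 28.0 to 129, which covers counting error only. HSFA9 passed the filter on low counts only through its salt libraries, so that it had to differ with salt in at least 1 genotype. The salt libraries of either genotype alone were enough, so the filter did not fix which genotype differed. Its gene, introns included, overlaps 303 bases of a small nucleolar RNA gene (AT5G54075) on the other strand, and the library kit does not mark strand. That RNA had 0 to 4 counts in every library, and how reads in the overlap were assigned is not given in the sources used here. Of 1365 stretches of 50 bases in the HSFA9 exons, 84 also occurred elsewhere in the genome, 69 of them inside this overlap.

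HSP17.4, the class I protein, was the second gene to rise. Its counts were 879, 1584 and 2861 in the wild type controls and 5252, 7384 and 5041 with NaCl. The levels of 54.9 ± 33.7 and 170 ± 44.7 CPM (SD, n = 3) did not overlap between groups. It rose by 1.64 ± 0.46 (SE) on the log2 scale (3.11-fold, adjusted p = 0.00522, edgeR). Without wild type control library 3, the rise was 2.25 (adjusted p = 0.000686, edgeR). Its gene overlaps the neighbour AT3G46220 by 60 bases on the other strand, and the neighbour had 765 to 1301 counts per library.

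HSP101 fell in the wild type from 4025, 5758 and 12985 counts to 1070, 1498 and 695 counts. Its level was 235 ± 159 CPM without and 31.5 ± 12.7 CPM with NaCl (SD, n = 3), with no overlap. The log2 difference was -2.90 ± 0.56 (SE; adjusted p = 0.000345, edgeR), a 7.45-fold fall. Its gene, introns included, overlaps 101 bases of AT1G74300 on the other strand, a gene with 2 to 20 counts per library. HSP101 thus fell in the same libraries in which HSP17.4 rose.

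HSP21, the chloroplast protein, showed the largest fall among the 10 genes, from 36, 60 and 160 counts to 2, 3 and 2 counts. The log2 difference was -5.22 ± 1.0 (SE; adjusted p = 0.000314, edgeR) and the ratio of summed counts was 38.4, with a 95% exact interval from 18.4 to 96.6. The control libraries of either genotype alone were enough for HSP21 to pass the filter on low counts, and its salt libraries alone were not. It therefore had to differ with salt in at least 1 genotype, though the filter did not fix which. The wild type salt libraries held 7 counts in total, which leaves the size of the fall uncertain. HSP23.6-MITO, the mitochondrial protein, fell from 1347, 2169 and 3994 counts to 713, 915 and 678 counts, again with no overlap in CPM. It fell by 1.80 ± 0.45 (SE) on the log2 scale (adjusted p = 0.00242, edgeR).

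The neighbouring class II genes gave different calls with salt, and the difference between the genes was not tested. HSP17.6II had 462, 834 and 2164 counts in wild type controls and 127, 357 and 117 counts with NaCl, without overlap in CPM. It fell by 2.62 ± 0.73 (SE) on the log2 scale (adjusted p = 0.00514, edgeR). HSP17.6A had 1783, 3088 and 4664 counts in controls and 3757, 4399 and 3751 counts with NaCl. Those groups overlapped, and the log2 difference of 0.23 ± 0.43 (SE) did not pass the test (adjusted p = 0.645, edgeR). No stretch of 50 bases in the exons of either gene occurred elsewhere in the genome, so exact reads of that length could not be swapped between them.

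The remaining class I genes and the endoplasmic reticulum protein gave weaker calls. HSP17.6C had 304, 743 and 1462 counts in controls and 302, 547 and 284 counts with NaCl, a log2 difference of -1.24 ± 0.66 (SE; adjusted p = 0.0992, edgeR). With 1 library left out, this difference of HSP17.6C ran from -1.65 to -0.48, and it passed without wild type control library 1 (log2 -1.64, adjusted p = 0.0319, edgeR). HSP22.0 had 40, 112 and 269 counts and then 177, 191 and 205 counts, a log2 difference of 0.34 ± 0.63 (SE; adjusted p = 0.633, edgeR). HSP18.2 was the least abundant of these, with 7, 27 and 64 counts and then 7, 8 and 18 counts. For HSP17.6C, HSP22.0 and HSP18.2 the groups overlapped. HSP18.2 was called lower by a narrow margin (log2 -1.66 ± 0.72, SE; adjusted p = 0.0483, edgeR). That call was lost when any of 8 single libraries was left out, namely wild type control 2 or 3, wild type NaCl 1 or 2, camta6-5 control 2 or any camta6-5 NaCl library, and without wild type control library 3 it stood at -0.64 (adjusted p = 0.415, edgeR).

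Without wild type control library 3, the falls were -2.18 for HSP101, -1.70 for HSP17.6II, -4.30 for HSP21 and -1.21 for HSP23.6-MITO on the log2 scale, and these 4 stayed past the threshold, with adjusted p from edgeR of 0.00137, 0.0367, 0.00108 and 0.0161. Leaving out wild type NaCl library 2 gave -3.38 for HSP17.6II (adjusted p = 0.00383, edgeR).

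In camta6-5, salt raised HSFA9 and lowered HSP101, HSP17.6II, HSP21 and HSP23.6-MITO. These were 5 of 10 genes, 1 higher and 4 lower, and 55.6% of all genes were called, 28.2% higher and 27.5% lower, so that the share is again near the background. The libraries did not overlap for 3 of the 10 genes, against 62.1% of all genes. The median log2 change was -1.47 over the 10 genes and 0.01 over all genes.

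HSFA9 had 2, 3 and 2 counts in the camta6-5 controls and 55, 43 and 40 counts with NaCl, at 0.0755 ± 0.0195 and 1.39 ± 0.190 CPM (SD, n = 3). The groups did not overlap, and the difference was 4.14 ± 0.35 (SE) on the log2 scale (17.6-fold, adjusted p = 1.43e-06, edgeR). For HSFA9, the filter on low counts required a difference with salt in at least 1 genotype, but not in camta6-5 as such. The ratio of summed counts was 18.4, with a 95% exact interval from 8.71 to 46.7. HSP21 had 159, 79 and 17 counts in controls and 16, 5 and 3 counts with NaCl, a fall of 3.47 ± 0.82 (SE) on the log2 scale (adjusted p = 0.00301, edgeR). HSP23.6-MITO had 2797, 2822 and 827 counts and then 667, 663 and 334 counts, and fell by 2.06 ± 0.46 (SE) on the log2 scale (adjusted p = 0.00202, edgeR). For both, every salt library lay below every control library in CPM.

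HSP101 and HSP17.6II were called lower although their libraries overlapped, because control library 3 lay among the salt libraries. HSP101 had 7497, 7266 and 1798 counts in camta6-5 controls and 2297, 1107 and 1183 with NaCl (log2 -1.94 ± 0.54, SE; adjusted p = 0.00821, edgeR). HSP17.6II had 1318, 936 and 239 counts and then 302, 107 and 56 counts (log2 -2.52 ± 0.75, SE; adjusted p = 0.0117, edgeR). Without camta6-5 NaCl library 1, the falls of HSP17.6II and HSP21 were -3.41 and -4.42, and without camta6-5 control library 1 that of HSP21 was -2.70 on the log2 scale.

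Of the other 5 genes, HSP17.4 had 2077, 1921 and 535 counts in camta6-5 controls and 2987, 1935 and 1935 with NaCl, and its log2 difference of 0.51 ± 0.45 (SE) did not pass (adjusted p = 0.359, edgeR). HSP17.6A, with 3941, 3396 and 845 counts and then 1854, 1233 and 1265, stood at -0.99 ± 0.44 (SE) on the log2 scale (adjusted p = 0.0725, edgeR). HSP17.6C, with 1095, 738 and 153 counts and then 403, 128 and 125, stood at -1.69 ± 0.69 (SE; adjusted p = 0.0506, edgeR). For HSP18.2 and HSP22.0 the log2 differences were -1.26 ± 0.70 and -0.93 ± 0.66 (SE), with adjusted p of 0.140 and 0.251 from edgeR. Leaving out camta6-5 control library 3 brought the number of genes called lower from 4 to 7, since HSP17.6A, HSP17.6C and HSP22.0 then passed. HSP17.6C also passed without camta6-5 NaCl library 1 (log2 -2.43, adjusted p = 0.0243, edgeR), without wild type control library 1 (adjusted p = 0.0332) and without wild type control library 3 (adjusted p = 0.0318).

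**Figure D2:**
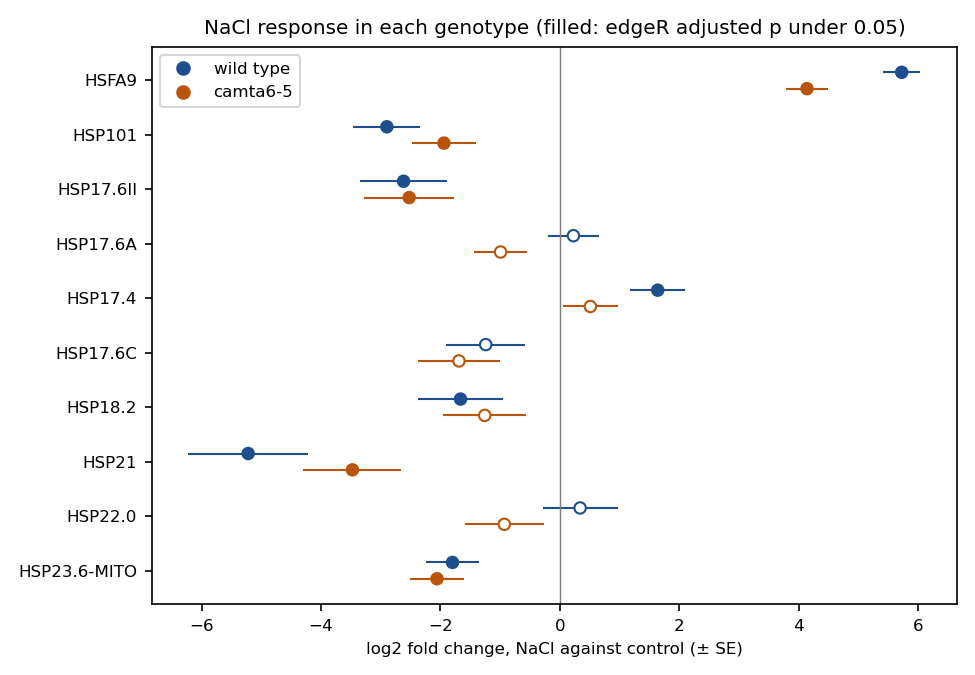
NaCl response of the 10 genes in wild type and camta6-5, as log2 fold change against the control of the same genotype with its SE from edgeR; filled points have an adjusted p under 0.05. HSFA9 lies at 5.72 and 4.14, HSP17.4 at 1.64 and 0.51, and HSP21 at -5.22 and -3.47 in wild type and camta6-5.

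Without salt, no difference between the genotypes was called for any of the 10 genes, and the libraries of the genotypes overlapped in all 10, as they did for 86.3% of all genes. Of all genes, 0.216% were called in this comparison, 0.0864% higher and 0.13% lower. The count was 0 by edgeR, by DESeq2 and by limma voom, 0 genes had an unadjusted p under 0.05 in edgeR, and the lowest unadjusted p was 0.442, for HSP101. HSFA9 had 2 to 4 counts per control library in either genotype. The control libraries that stood apart widen these estimates, and the log2 difference of HSP101, for example, was -0.41 ± 0.52 (SE), so that a difference of that size was not detectable here.

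With salt, camta6-5 had lower levels of HSFA9, HSP17.6A and HSP17.4 than the wild type, 3 of 10 genes, all lower. Over all genes, 62.3% were called here, 33.8% higher and 28.5% lower. The 3 lower genes are near the share of all genes called lower, while 0 of the 10 were called higher. Neither group here holds a control library, although the spread was estimated over all 4 groups. HSFA9 stood at 5.59, 3.67 and 4.09 CPM in the wild type libraries and at 1.60, 1.22 and 1.34 CPM in those of camta6-5. It was lower in each of the 3 mutant libraries, by 1.68 ± 0.21 (SE) on the log2 scale (3.20-fold, adjusted p = 1.81e-05, edgeR). HSP17.6A stood at 104, 132 and 107 CPM in wild type and 53.8, 35.1 and 42.4 CPM in camta6-5 (log2 -1.39 ± 0.45, SE; adjusted p = 0.0155, edgeR). HSP17.4 stood at 146, 222 and 143 CPM in wild type and 86.6, 55.1 and 64.8 CPM in camta6-5 (log2 -1.31 ± 0.45, SE; adjusted p = 0.0230, edgeR). For all 3 genes the wild type and mutant libraries did not overlap, which held for 5 of the 10 genes and for 70.0% of all genes.

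HSP22.0 also lay lower in each mutant library, at 4.92, 5.74 and 5.83 CPM in wild type and 2.06, 2.36 and 2.75 CPM in camta6-5, but did not pass the test (log2 -1.20 ± 0.66, SE; adjusted p = 0.127, edgeR). It passed when only the salt libraries were fitted (adjusted p = 8.39e-05, edgeR), where the wide spread of the controls does not enter, and without camta6-5 control library 3 (adjusted p = 0.0469, edgeR). HSP21 lay higher in each mutant library, with 2, 3 and 2 counts in wild type and 16, 5 and 3 in camta6-5, and did not pass (log2 1.78 ± 1.36, SE; adjusted p = 0.268, edgeR). HSP101 lay at 29.7, 45.0 and 19.8 CPM in wild type and at 66.6, 31.5 and 39.6 CPM in camta6-5, with overlap and no call (log2 0.54 ± 0.54, SE; adjusted p = 0.392, edgeR). Values for HSP17.6II, HSP17.6C, HSP18.2 and HSP23.6-MITO overlapped between genotypes, with adjusted p from 0.365 to 0.722 in edgeR.

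The call of HSP17.4 was lost without camta6-5 NaCl library 2 (adjusted p = 0.0780, edgeR), camta6-5 NaCl library 3 (adjusted p = 0.0610) or wild type NaCl library 2 (adjusted p = 0.0810). That of HSP17.6A was lost without camta6-5 NaCl library 2 (adjusted p = 0.0576, edgeR), which left HSFA9 as the 1 gene called.

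Whether salt acted differently in the genotypes was tested by the interaction, which passed for 0 of the 10 genes and for 48.1% of all genes, 27.1% higher and 21% lower. DESeq2 and limma voom also called 0, and 1 gene had an unadjusted p under 0.05 in edgeR. That gene was HSFA9, with a log2 interaction of -1.59 ± 0.64 (SE), camta6-5 minus wild type (adjusted p = 0.0798, edgeR). HSP17.6A gave -1.22 ± 0.62 (SE; adjusted p = 0.122, edgeR), HSP17.4 -1.13 ± 0.64 (adjusted p = 0.163) and HSP22.0 -1.27 ± 0.91 (adjusted p = 0.270). This result depended on single control libraries. Without wild type control library 3, HSFA9 (log2 -2.04, adjusted p = 0.0473, edgeR), HSP17.6A (-1.68, 0.0381), HSP17.4 (-1.74, 0.0289) and HSP22.0 (-2.24, 0.0448) were called lower. For HSFA9, all controls together held only 8 counts in wild type and 7 in camta6-5, so its interaction rests on a few reads. Without camta6-5 control library 3, HSP17.6A (log2 -1.66, adjusted p = 0.00642, edgeR) and HSP17.4 (-1.54, 0.0260) were called lower.

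Per length, the most abundant of the 10 transcripts in the wild type controls was HSP17.6A at 111 ± 55.8 RPKM (CPM per kilobase of exon; SD, n = 3), followed by HSP17.4 at 75.8 ± 46.5, HSP23.6-MITO at 73.8 ± 43.6, HSP101 at 69.8 ± 47.2, HSP17.6II at 40.7 ± 33.4 and HSP17.6C at 28.8 ± 21.3 RPKM. The levels of neighbours among these 6 differed by less than their SD, which reflects a spread that the genes share across libraries. The exon lengths are those of RefSeq. For HSP17.6II, HSP17.6A, HSP17.6C, HSP18.2, HSP22.0 and HSP23.6-MITO they exceed the whole gene of the deposited table, while for HSP17.4 they equal it. The exons of HSP101 include 179 bases upstream of the table's gene. If reads were counted on the table's genes, the RPKM of HSP101 and of the genes with longer exons is too low beside HSP17.4. The order of close genes on this scale is therefore uncertain. Within each of the 3 wild type control libraries, HSP17.6A was above HSP17.4, HSP17.4 above HSP101, HSP101 above HSP17.6II and HSP17.6II above HSP17.6C, while HSP23.6-MITO changed places with HSP17.4 and with HSP101. In libraries 1 and 3, HSP17.4 was only 1.01 and 1.02 times HSP101, so the order of these genes there is uncertain. HSP22.0, HSP21 and HSP18.2 stood at 4.23 ± 3.69, 2.70 ± 2.2 and 1.04 ± 0.959 RPKM, and HSFA9 was the lowest at 0.0541 ± 0.0263 RPKM. The camta6-5 controls had the same order of the first 4, from HSP17.6A at 98.8 ± 58.4 to HSP101 at 52.5 ± 30.1 RPKM, and HSFA9 again last at 0.0499 ± 0.0129 RPKM. In wild type with NaCl, HSP17.4 led at 235 ± 61.7 RPKM, ahead of HSP17.6A at 130 ± 17.5, HSP23.6-MITO at 21.2 ± 4.40, HSP17.6C at 12.2 ± 5.27 and HSP101 at 9.37 ± 3.79 RPKM. HSFA9 reached 2.94 ± 0.667 RPKM and HSP21 became the lowest at 0.0687 ± 0.0200 RPKM. In camta6-5 with NaCl the same first 2 led, with HSP17.4 at 95.1 ± 22.3 and HSP17.6A at 49.6 ± 10.7 RPKM.

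Although the sum of the 8 small heat shock protein transcripts varied widely among controls, the share of HSP17.4 in it varied little. The sum ran from 155 to 562 RPKM in wild type controls and from 99.0 to 410 RPKM in camta6-5 controls. HSP17.4 made up 22.4 ± 0.146% of it in wild type controls and 23.3 ± 1.53% in camta6-5 controls (SD, n = 3). With NaCl its share was 57.0 ± 1.82% in wild type and 54.2 ± 2.05% in camta6-5, without overlap with the controls. HSP17.6A held 34.3 ± 3.77% without and 32.0 ± 2.72% with NaCl in wild type, where the libraries overlapped, and 33.3 ± 1.04% and 28.4 ± 1.74% in the mutant, where every salt library lay below every control. HSP23.6-MITO went from 22.1 ± 1.20 to 5.17 ± 0.119% in wild type and from 23.5 ± 3.14 to 9.15 ± 2.99% in camta6-5. HSP17.6II went from 11.1 ± 2.47 to 1.51 ± 0.726% and from 9.94 ± 1.22 to 2.72 ± 1.56%.

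The RPKM ratio of HSP17.4 to HSP101 lay between 1.01 and 1.38 in all 6 control libraries, the outlying ones included. It was 22.8 to 33.7 in wild type with NaCl and 6.04 to 8.12 in camta6-5 with NaCl, so that the 3 ranges did not overlap. The ratio of HSP17.6A to its neighbour HSP17.6II lay between 2.15 and 3.85 in the controls, at 12.3 to 32.0 in wild type with NaCl and at 6.13 to 22.6 in camta6-5 with NaCl. These shares and ratios were chosen after the values had been seen and carry no test. Their size also depends on the exon lengths used, while the change of a ratio between groups does not.

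**Figure D3:**
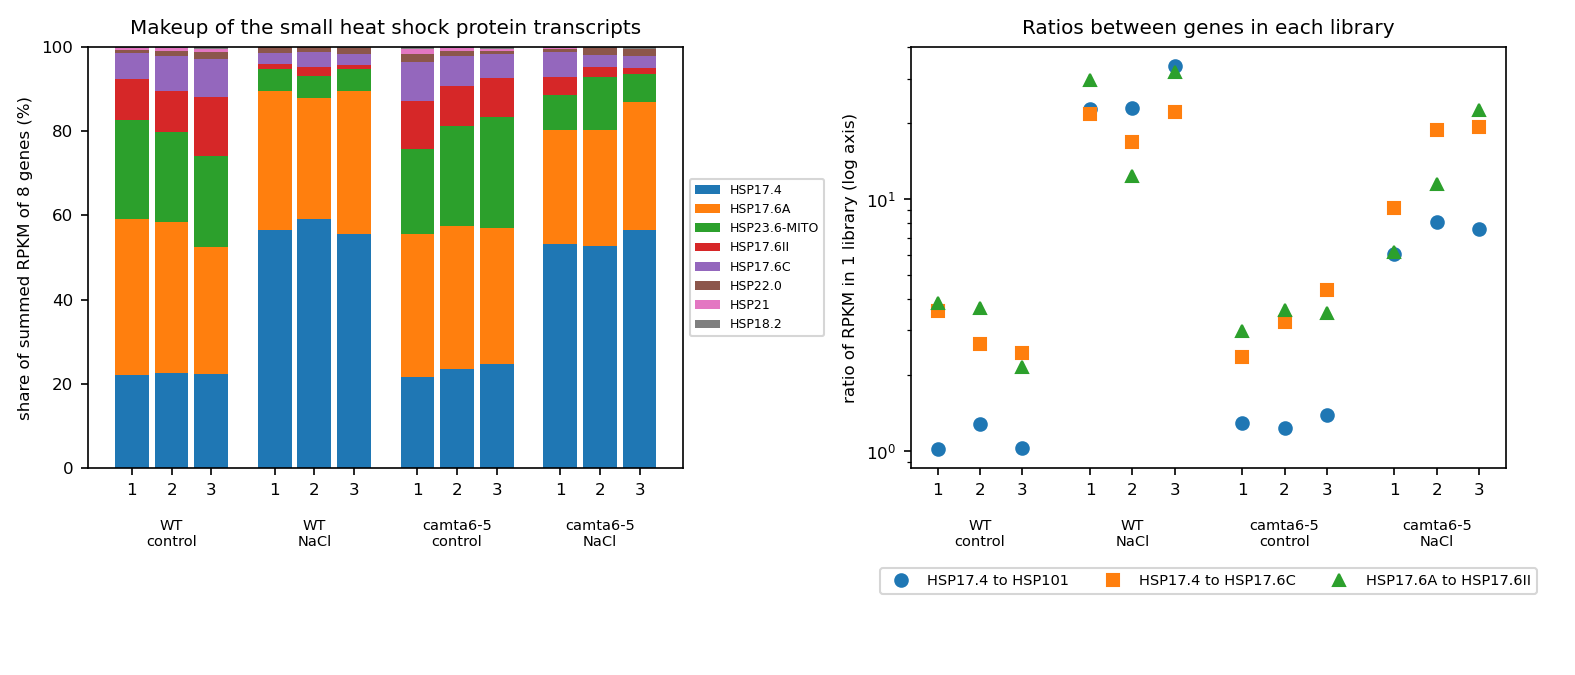
Left, share of each small heat shock protein gene in the summed RPKM of the 8 genes in each library. Right, ratios of RPKM between pairs of genes in each library on a log axis. HSP17.4 holds about the same share in all 6 controls, 21.7 to 24.8%, and 52.8 to 59.1% in all 6 salt libraries.

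Across the 12 libraries, the genes with the log2 CPM pattern most like that of HSFA9 were AT1G48490, AT5G01670, ATL24, HSRP54A and FAB1A, with Pearson r from 0.993 to 0.995. The libraries fall into separate groups, so r for HSFA9 is a description of the group levels. For HSP101, r also takes in the wide spread within the control groups. AT5G01670 went from 17.2 ± 2.58 to 218 ± 11.0 CPM with salt in wild type and from 16.7 ± 1.30 to 94.0 ± 18.6 CPM in the mutant (SD, n = 3). The genes most like HSP101 were ATERDJ3A, HSP17.8, HSP81-1, AT2G20560 and Hop3, with r from 0.980 to 0.986. HSP81-1, a cytosolic HSP90, went from 341 ± 195 to 65.6 ± 24.3 CPM in wild type and from 322 ± 138 to 101 ± 25.2 CPM in the mutant.

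With salt, most of the other small heat shock protein genes were lower or not called, other heat shock factors were split, and most seed regulators were higher. Of 11 other small heat shock protein genes, 6 were lower and 1 higher in wild type and 7 lower in camta6-5, against 77.5 and 55.6% of all genes called in either direction. Their median log2 changes were -1.07 and -1.55. AT1G59860, a further small heat shock protein gene that the table also labels HSP17.6A, went from 89.5 ± 37.7 to 1.34 ± 0.795 CPM in wild type and from 82.2 ± 41.7 to 14.7 ± 5.03 CPM in camta6-5 (SD, n = 3). HSP15.4 went from 25.1 ± 5.86 to 0.817 ± 0.238 CPM and from 26.5 ± 6.56 to 4.51 ± 1.85 CPM. Both fell less in camta6-5, with interactions of 3.59 and 2.39 on the log2 scale (adjusted p = 0.00120 and 0.000600, edgeR). HSP14.7 went the other way, from 1.05 ± 0.276 to 2.89 ± 0.421 CPM in wild type and from 1.32 ± 0.358 to 1.72 ± 0.460 CPM in camta6-5 (interaction log2 -1.08, adjusted p = 0.0311, edgeR). The interaction of HSP17.4B, 1.30 on the log2 scale, did not pass (adjusted p = 0.10, edgeR).

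Of 20 other heat shock factor genes, 17 could be tested, and 7 were higher and 7 lower in wild type with salt, 5 and 8 in camta6-5, again beside 77.5 and 55.6% of all genes called. HSF3 (HSFA1B) and HSFA1E, of the class A1 master activators of the heat response, went from 9.12 ± 1.32 to 35.7 ± 2.70 CPM and from 24.1 ± 3.27 to 85.4 ± 8.73 CPM in wild type. In camta6-5 they went from 10.3 ± 1.62 to 18.4 ± 1.65 CPM and from 21.1 ± 3.56 to 34.1 ± 6.24 CPM. Their interactions were -1.13 and -1.13 on the log2 scale (adjusted p = 0.000249 and 0.000779, edgeR). The class B factors HSFB4 and HSFB2A fell in wild type, from 16.7 ± 2.2 to 4.20 ± 0.646 CPM and from 87.5 ± 9.50 to 15.9 ± 1.13 CPM, and fell less in camta6-5 (interaction log2 1.51 and 1.37, adjusted p = 2.91e-05 and 0.000112, edgeR). HSFA2, the heat-induced amplifier of the response, was named after its values were seen. It went from 114 ± 48.0 to 7.61 ± 3.47 CPM in wild type and from 97.8 ± 48.4 to 25.2 ± 3.58 CPM in camta6-5.

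Of 9 other heat response genes, 8 could be tested, and 4 fell and 1 rose in wild type, 5 and 0 in camta6-5, with the same 77.5 and 55.6% of all genes called. The coactivator MBF1C went from 85.4 ± 32.2 to 6.57 ± 1.58 CPM in wild type and from 75.9 ± 29.6 to 24.2 ± 3.64 CPM in camta6-5 (interaction log2 2.05, adjusted p = 0.00220, edgeR). The interactions of HSBP, a protein that binds heat shock factors, ROF1 and BAG6 were 0.37, -0.40 and 1.82 on the log2 scale (adjusted p = 0.0129, 0.0342 and 0.0543, edgeR).

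Of 6 seed regulators, 5 could be tested, and 4 rose and 1 fell in each genotype, where 37.9% of all genes were higher and 39.6% lower in wild type and 28.2% and 27.5% in camta6-5. DOG1 passed the filter on low counts only through its salt libraries. LEC2, the gene that fell, passed it only through its control libraries. Both genes thus had to differ with salt in at least 1 genotype, though the filter did not fix which. ABI3, the seed activator known to act upstream of HSFA9, went from 275 ± 18 to 610 ± 49.0 CPM in wild type and from 265 ± 4.77 to 391 ± 6.98 CPM in camta6-5. ABI5, the abscisic acid response factor, went from 56.2 ± 6.02 to 226 ± 12.6 CPM and from 69.3 ± 9.12 to 144 ± 13.7 CPM. Their rises were smaller in camta6-5, with interactions of -0.58 and -0.96 on the log2 scale (adjusted p = 0.000708 and 0.000249, edgeR). DOG1, a dormancy gene, had 1 and 184 counts in wild type control and NaCl and 2 and 67 counts in those of camta6-5, each summed over 3 libraries. The interactions of DOG1 and LEC2 did not pass (adjusted p = 0.221 and 0.522, edgeR).

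**Figure D4:**
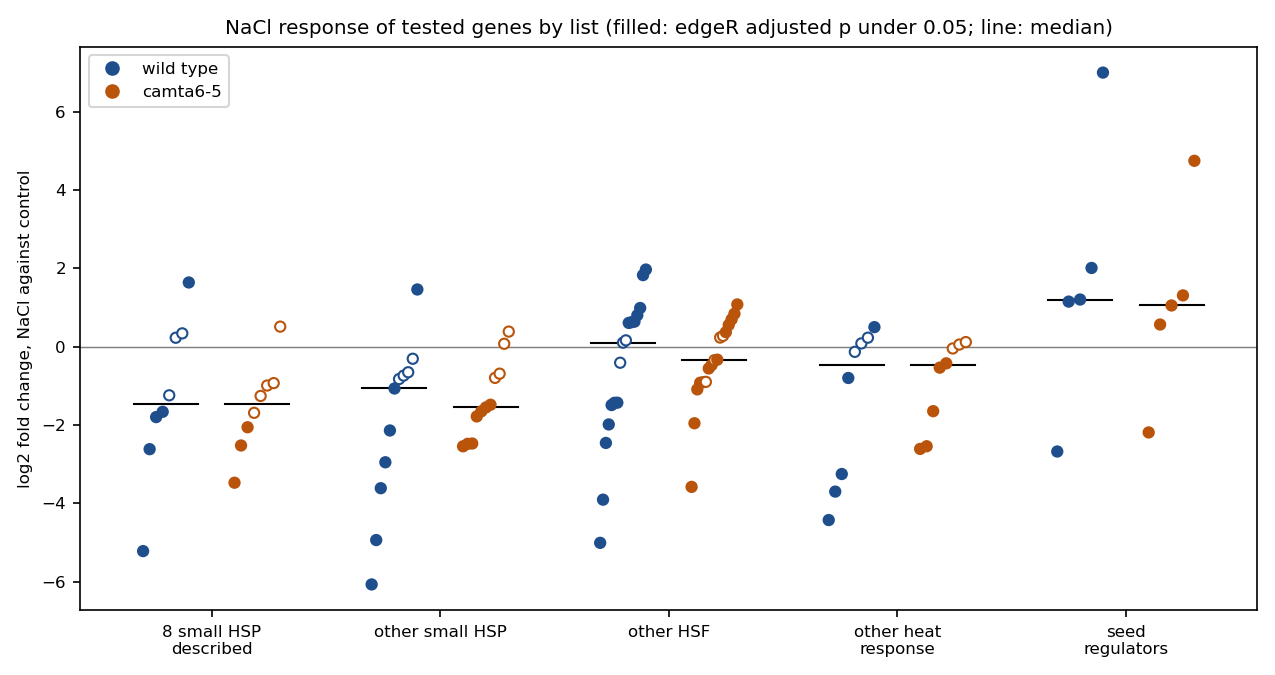
NaCl response of the tested genes of each list in wild type and camta6-5, as log2 fold change; filled points have an edgeR adjusted p under 0.05 and lines are list medians. The 8 small heat shock protein genes spread from -5.22 to 1.64 in wild type, and 4 of 5 seed regulators lie above 0 in both genotypes.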

How the data were processed

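Raw counts per gene were deposited by the authors in 1 table, not normalized, since all values were whole and totals differed between libraries. Per the submitters' processing notes, the tools were HTSeq 0.6.1, TopHat2 2.1.0 with Bowtie2 2.2.6, cutadapt 1.9 and DESeq2 1.10.0, the build was TAIR10, and settings are not given in the sources used here. The labels' protocols name a library kit that does not mark strand. Of the table's genes, 32835 were found in the RefSeq annotation of TAIR10.1, and 56.8% of these shared a start or end with the table.

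For the tests, edgeR 4.0.16 (R 4.3.3) was fitted to all 12 libraries with a mean for each of the 4 groups, leaving 8 degrees of freedom. filterByExpr (minimum count 10, minimum total 15) left 18515 genes, all 10 genes described among them. TMM factors ran from 0.927 to 1.03. The quasi-likelihood test used Benjamini-Hochberg adjustment over all genes tested in a comparison, for 5 comparisons. RPKM used the union of RefSeq exons. The fit was tested on simulated data with 200 changed genes. Alternatives were RLE or no scaling, 2 other filters, DESeq2 1.42.0, limma 3.58.1 voom, the replicate number as a block, fits of only the groups compared, and each library left out in turn. Over all genes tested, libraries of the same replicate number deviated together in the 2 control groups. All 3 pairs there had r from 0.179 to 0.270 (mismatched pairs -0.275 to 0.100). In the other pairs of groups at most 2 of 3 exceeded 0.1. The genes described went otherwise, since in 9 of 10 library 3 was the highest wild type control and the lowest camta6-5 control. The pairing of the controls comes from the data, since the labels give only the number.

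The genes described, and the lists, were chosen with earlier results of these data known. From each list, up to 4 genes with the smallest interaction p are named, and for HSFA9 and HSP101 the 5 genes with the highest Pearson r of log2 CPM (prior count 2). The labels do not say that libraries of a group came from separate cultures, so p-values measure the spread between these samples, which may be technical.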

Additional observations from a re-analysis of the deposited data

How the results depend on the processing

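Leaving out each library in turn gave 2 to 2 genes higher and 4 to 6 lower with NaCl in wild type, 1 to 1 higher and 4 to 7 lower in camta6-5, 0 without NaCl between genotypes, 0 higher and 1 to 4 lower with NaCl between genotypes, and 0 higher and 0 to 4 lower in the interaction. With both control libraries numbered 3 left out, an alternative chosen after seeing the data, 4 genes were higher in wild type, 8 were lower in camta6-5 and 4 were lower in the interaction (HSP17.6A, HSP17.4, HSP22.0 and HSP23.6-MITO). Without the 5 libraries richest in 18S rRNA, also chosen after seeing the data, which leaves 1 library in each camta6-5 group, 1 was lower in the interaction, and the falls of HSP101, HSP17.6II, HSP21 and HSP23.6-MITO in camta6-5 were -2.58, -4.03, -4.63 and -3.04 on the log2 scale. The fall of HSP18.2 in wild type also lost its call with no scaling factors (adjusted p = 0.0526, edgeR), with limma voom (0.207) and with only the groups compared (0.0552), and HSP17.6C passed there in the last of these (0.0442). In camta6-5, HSP17.6C passed with RLE factors (0.0477), no filter (0.0248) and only the groups compared (0.0474), and HSP17.6A with no filter (0.0409). Taking the promoter windows from the RefSeq transcript starts, also chosen after seeing the data, left 4 genes with a 2-unit heat shock element in place of 8, since in 4 genes the elements lie inside the RefSeq transcript. The cause of the other changes was not tested.

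With the replicate block, 6 of 10 genes were called with NaCl in wild type, where HSP18.2 was lost (log2 -1.60, adjusted p = 0.0674, edgeR), and 5, 0, 3 and 0 in the other comparisons, as without it. It changed no other call of the 10 genes. With only the 2 control groups and the block, chosen after seeing the data, HSFA9 was not tested (too few counts) and 0 of the other 9 were called.

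Of the values of single genes, 34 of 600 changed sign when 1 library was left out and 23 in the other settings, all of them of differences that had not passed the test. The cause was not tested. Without both control libraries numbered 3, they were between genotypes without NaCl HSFA9 0.41, HSP101 0.69, HSP17.6II 0.89, HSP17.6A 0.68, HSP17.4 0.79, HSP17.6C 0.89 and HSP23.6-MITO 0.77 and in the interaction HSP101 -0.18, HSP17.6II -1.26 and HSP18.2 -1.01. Without the 5 libraries richest in 18S rRNA, they were for NaCl in wild type HSP17.6A -0.061 and HSP22.0 -0.10, between genotypes without NaCl HSFA9 0.052, HSP18.2 -0.51, HSP21 -0.44 and HSP22.0 -0.48 and in the interaction HSP17.6II -1.03. With no scaling factors, they were between genotypes without NaCl HSP18.2 -0.041 and HSP21 -0.023. With DESeq2, they were between genotypes without NaCl HSP18.2 -0.0093. With limma voom, they were between genotypes without NaCl HSP21 -0.065 and in the interaction HSP17.6II -0.0047. With the replicate block, they were between genotypes without NaCl HSP21 -0.057. For NaCl in wild type, the log2 differences with 1 library left out ran over HSP17.6A -0.067 to 0.69 and HSP22.0 -0.11 to 1.31. Between genotypes without NaCl, the log2 differences with 1 library left out ran over HSFA9 -0.32 to 0.33, HSP101 -0.75 to 0.28, HSP17.6II -0.90 to 0.46, HSP17.6A -0.50 to 0.26, HSP17.4 -0.54 to 0.40, HSP17.6C -0.84 to 0.43, HSP18.2 -0.56 to 1.01, HSP21 -0.75 to 0.92, HSP22.0 -0.76 to 1.0 and HSP23.6-MITO -0.50 to 0.40. Between genotypes with NaCl, the log2 differences with 1 library left out ran over HSP17.6II -1.23 to 0.40. In the interaction, the log2 differences with 1 library left out ran over HSP17.6II -0.83 to 0.85, HSP17.6C -1.21 to 0.061, HSP18.2 -0.62 to 0.95 and HSP23.6-MITO -0.85 to 0.048.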
